A study of Mus musculus with 2 samples.

Results

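A set of 10 secreted signals of the BMP and TGF beta family was followed in the adult mouse kidney, namely the ligands Bmp2, Bmp4, Bmp6, Bmp7, Tgfb1, Tgfb2, Tgfb3 and Gdf15 and the antagonists Sostdc1 and Grem1. They were taken by symbol from the gene tables of both kidney libraries, and all 10 were found among 43346 genes. The kidneys came from C57BL/6J mice, an inbred laboratory strain, at 8 weeks of age, with no treatment or altered gene named. The labels give 1 group with 2 biological replicates, here library 1 and library 2, from littermates labelled as pooled from both sexes, with 1 donor label for both and a health state given as unknown. Levels are in TPM, a unit that scales transcripts to gene length and to a common total per library, and are given as mean ± SD over both libraries (n = 2). That SD measures only the spread between these libraries, which may be technical.

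Bone morphogenetic proteins (BMPs) and the transforming growth factors beta (TGF beta) are related dimeric ligands that bind pairs of type I and type II receptor kinases. The receptors phosphorylate Smad proteins, with Smad1, Smad5 and Smad9 used mainly by BMPs and Smad2 and Smad3 mainly by TGF beta, and these enter the nucleus with Smad4. Secreted antagonists hold BMPs away from their receptors, whereas TGF beta is released in a latent complex and has to be activated. In the kidney, Bmp7 is needed for nephron formation, Sostdc1 is known as an antagonist of the distal tubule, and Tgfb1 is the ligand best known for its part in fibrosis.

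The libraries held 67252609 and 87330097 expected counts over genes, and spike-in RNA took 1.59% and 2.29% of all counts, in libraries 1 and 2. All 10 markers of kidney tubules and glomeruli were detected in both, with summed levels of 10974 and 7471 TPM. The libraries stood apart in markers of other tissues. Of 5 skeletal muscle markers, 5 were called higher in library 2 (summed levels 2.25 and 714 TPM), as were 5 of 5 lymphocyte markers (2.43 and 28.1 TPM). Of 5 adrenal cortex markers, 5 were called lower in library 2 (29.6 and 0.58 TPM), with Cyp11b2 at 0 there. Sums for macrophages were 131 and 127 TPM, for fat 1951 and 1274 TPM, for urothelium 68.5 and 42.7 TPM, and for vessel and stroma 966 and 699 TPM. In the first 3 of these lists no marker was called, and in the last 1 of 9, the smooth muscle actin Acta2, was called lower in library 2. The 4 Y-linked genes examined, Ddx3y, Eif2s3y, Uty and Kdm5d, had no more than 3 counts in a library, and Xist had 26.8 and 31.4 TPM, which goes against the label of pooled sexes.

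**Figure D1:**
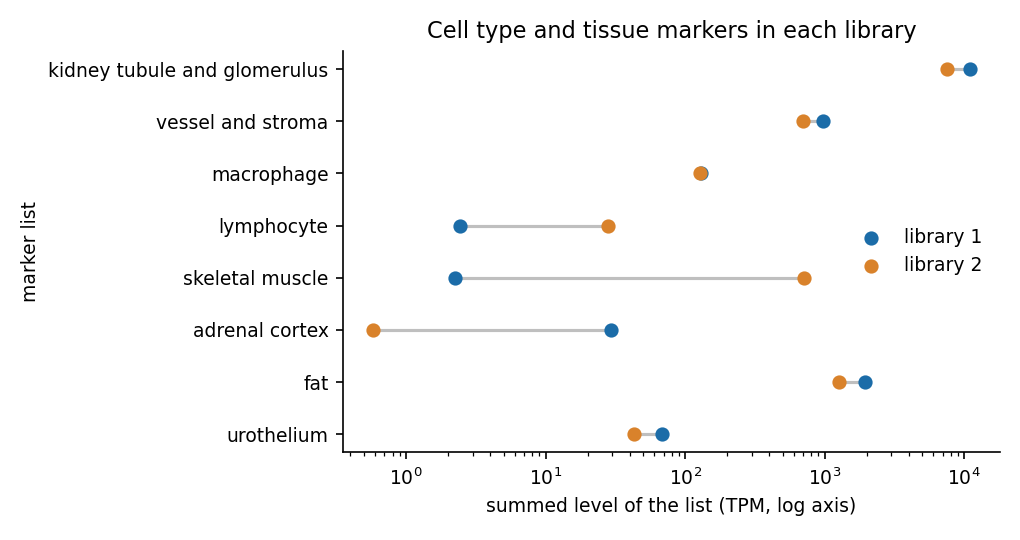
Summed level of each marker list (TPM, log axis) in library 1 (blue) and library 2 (orange), 1 row per list. Kidney markers reach 10974 and 7471 TPM, whereas skeletal muscle (2.25 and 714 TPM), lymphocyte (2.43 and 28.1 TPM) and adrenal cortex lists (29.6 and 0.58 TPM) lie far apart.

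Of the 10 genes, 7 reached 1 TPM in both libraries, against 30.2% of all genes and 57.2% of protein-coding genes. The median level of all 10 genes was 12.9 TPM, beside 2.80 TPM for protein-coding genes, and 5 of the 10 exceeded 10 TPM in both libraries. From highest to lowest mean on the deposited gene models, the order was Bmp6, Sostdc1, Bmp7, Bmp4, Tgfb1, Gdf15, Tgfb3, Bmp2, Tgfb2 and Grem1. In 8 of the 9 neighbouring pairs the ranges over both libraries stayed apart, with the same order in each library. Bmp2 and Tgfb2 were the exception, since their ranges overlapped and Tgfb2 was the higher in library 2. In whole tissue, fewer cells of a type and less RNA per cell cannot be told apart.

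**Figure D2:**
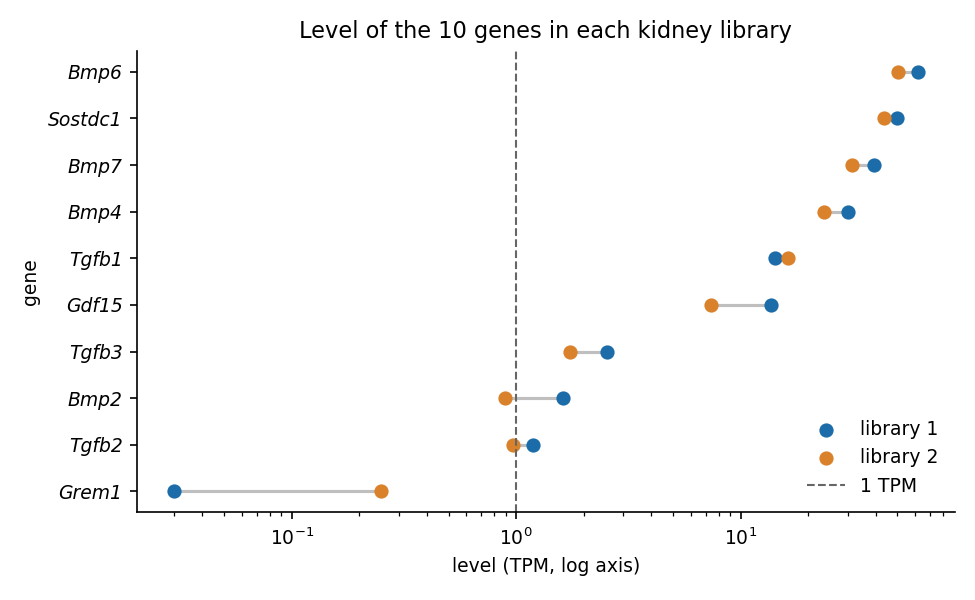
Level of each of the 10 genes (TPM, log axis) in library 1 (blue) and library 2 (orange), ordered by the mean, with a dashed line at 1 TPM. Bmp6 is highest at 61.5 and 50.4 TPM, 7 genes lie right of the line in both libraries, and Grem1 lies left of it in both.

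By deposited TPM, Bmp6 was the most abundant of the 10 genes. It encodes a BMP known for its control of iron balance through the liver hormone hepcidin, and lies on chr13:38345107-38500302 of GRCm38 (plus strand). Its level was 61.5 TPM in library 1 and 50.4 TPM in library 2 (55.9 ± 7.84), on 7274 and 8288 expected counts. Library 1 was the higher, and 90.4% of protein-coding genes had a lower mean. Its deposited gene model spans 2410 bases against 3593 bases for the same transcript in the later annotation M21, so its level per length depends on the annotation used. Its first place, and the folds, sums and shares that include it, rest on the shorter model. They were not recomputed on the longer one and may change with it. The last 224 bases of the M21 gene overlap Txndc5 on the opposite strand (90.6 and 64.9 TPM), and the strand setting of the counting is not given in the sources used here.

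Bmp7, the BMP that maintains nephron progenitors during development, followed among the BMPs. It lies on chr2:172868012-172940321 (minus strand) and had 39.5 TPM in library 1 and 31.5 TPM in library 2 (35.5 ± 5.67). Bmp4, which acts in ureter and stroma of the developing kidney, lies on chr14:46383520-46390669 (minus strand) and had 30.1 and 23.4 TPM (26.8 ± 4.70). Both were higher in library 1, and Bmp7 exceeded Bmp4 by 1.31-fold in library 1 and 1.34-fold in library 2. Bmp4 overlaps Gm15217 (26.6 and 26.7 TPM) by 89 bases and contains the antisense gene Gm15222 (2.54 and 1.70 TPM), both on the opposite strand.

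Bmp2, the close relative of Bmp4, was the lowest of the BMP ligands. It lies on chr2:133552159-133562885 (plus strand) and had 1.62 TPM in library 1 and 0.89 TPM in library 2 (1.26 ± 0.516). It passed 1 TPM in library 1 and not in library 2, and Bmp6 exceeded it by 37.9-fold and 56.6-fold in the respective libraries. The 4 BMP ligands summed to 133 and 106 TPM. Bmp6 held 46.3% and 47.4% of that sum, Bmp7 29.8% and 29.6%, Bmp4 22.7% and 22.1%, and Bmp2 1.22% and 0.838%. The 3 abundant ligands thus kept nearly the same proportions in both libraries.

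Sostdc1 and Grem1, both secreted BMP antagonists, stood at opposite ends of the order. Sostdc1, also called USAG-1, lies on chr12:36314139-36318452 (plus strand) and had 49.9 TPM in library 1 and 43.6 TPM in library 2 (46.8 ± 4.41), on 4139 and 5046 expected counts. With the deposited, shorter model of Bmp6, it came second only to Bmp6, by 1.23-fold and 1.15-fold, and above each of the other 3 BMP ligands. It held 15.7% and 17.2% of the summed TPM of the 20 antagonist and modulator genes in the tables. Grem1, gremlin 1, lies on chr2:113746164-113758646 (minus strand) and had 0.03 and 0.25 TPM (0.14 ± 0.156). These levels rest on 6 expected counts in library 1 and 74 in library 2, and 30.1% of protein-coding genes had a lower mean.

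Among the TGF beta ligands, Tgfb1 was the most abundant. It lies on chr7:25687002-25705077 (plus strand) and had 14.3 TPM in library 1 and 16.2 TPM in library 2 (15.3 ± 1.36). Together with Grem1 it was one of the 2 genes with a higher TPM in library 2, while the other 8 were lower there. A lower TPM in library 2 was common to genes at large. Over all genes at 1 TPM or more in both libraries, the median log2 ratio of TPM was -0.19. Tgfb3 (chr12:86056745-86079041, minus strand), which is known for its part in palate fusion, had 2.55 and 1.74 TPM (2.15 ± 0.573). It overlaps 5149 bases of Ttll5 on the opposite strand (8.64 and 7.52 TPM). Tgfb2 (chr1:186622792-186705989, minus strand), a ligand needed for heart and kidney development, had 1.19 and 0.97 TPM (1.08 ± 0.156).

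Tgfb1 held 79.3% and 85.7% of the summed TPM of the 3 TGF beta ligands, which was 18.0 TPM in library 1 and 18.9 TPM in library 2. Tgfb3 held 14.1% and 9.19%, and Tgfb2 6.60% and 5.12%. The 4 BMP ligands together exceeded the 3 TGF beta ligands by 7.36-fold in library 1 and 5.61-fold in library 2. The BMP sum was lower and the TGF beta sum higher in library 2, and both libraries put BMP transcripts well above those of TGF beta.

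Gdf15, a distant member of the family known as a circulating stress signal that lowers appetite through the brain receptor Gfral, lies on chr8:70629393-70632456 (minus strand). It had 13.7 TPM in library 1 and 7.42 TPM in library 2 (10.6 ± 4.45), on 892 and 664 expected counts. Library 1 was the higher. In library 1 it came within 1.04-fold of Tgfb1, and in library 2 Tgfb1 was 2.19-fold above it. Gfral itself had 0 counts in both libraries, read as a limit of 3 counts per library.

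The 2 libraries were then compared read by read, by an exact two-sided binomial test. It used rounded expected counts and library sizes scaled by TMM (trimmed mean of M values, a correction for composition). This test compares the reads of these libraries, not conditions, and its intervals cover counting error only. A gene was called with a Benjamini-Hochberg adjusted p below 0.05 over all 18723 genes tested and a log2 ratio of 1 or more in size. All 10 genes could be tested, and 1 was called, Grem1, higher in library 2. Over all genes tested, 5.62% were called higher and 2.59% lower in library 2, that is 1052 and 485 genes. Scaled to the spike-ins, 539 genes were called higher and 2331 lower, and 3 of the 10 were called. At any size of difference, 7 of the 10 had an adjusted p below 0.05 in the exact test, beside 57.5% of all genes tested, 5 of them lower and 2 higher in library 2. The median size of the log2 ratio was 0.25 for the 10 genes and 0.25 for all genes tested, so the members' count and spread were near the background.

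Grem1 was 10.01-fold higher in library 2 (95% interval 4.39 to 28.1, log2 ratio 3.32, exact binomial test, adjusted p = 1.76e-12). It rests on 6 counts in library 1, and the log2 ratio lay between 2.71 and 3.32 under 6 other scalings and filters. Those settings all use the same few reads, so that range does not test how far so low a count can be relied on. All 5 skeletal muscle markers and all 5 lymphocyte markers moved the same way, and all 5 adrenal cortex markers the opposite way, with the sums given above. Their part in the Grem1 difference was not tested.

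Gdf15 was the next most different, 1.66-fold higher in library 1 (95% interval 1.496 to 1.83, log2 ratio -0.73, exact binomial test, adjusted p = 3.96e-22). Bmp2 was 1.62-fold higher in library 1 (1.36 to 1.94, log2 ratio -0.70, exact binomial test, adjusted p = 1.95e-07). Both ratios were below the size set for a call, which both passed with spike-in scaling (log2 ratios of -1.34 for Gdf15 and -1.31 for Bmp2). With TMM scaling both lay within the range from -0.84 to 1.33 that holds the 5th to 95th percentile of log2 ratios over all genes tested. All 5 adrenal cortex markers were also higher in library 1. So were all 5 urothelium markers (log2 ratios from -0.83 to -0.38). Vessel and stroma markers went both ways (-1.14 to 0.29, median -0.16), as did kidney tubule and glomerulus markers (-0.88 to 0.42, median -0.23). The fat (-0.77 to 0.51, median -0.37) and macrophage lists (-0.18 to 0.46, median 0.24) also held both signs. The part of these markers in either difference was not tested.

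Tgfb1 was 1.27-fold higher in library 2 (1.19 to 1.36, log2 ratio 0.35, exact binomial test, adjusted p = 1.43e-12), but lower there by a log2 ratio of -0.27 when scaled to the spike-ins. Spike-in scaling lowered all log2 ratios by the same shift of -0.61. All 5 lymphocyte markers, all 5 skeletal muscle markers and 4 of 5 macrophage markers (list range of log2 ratios -0.18 to 0.46) were higher in library 2 too with TMM scaling, and their part was not tested. Tgfb3 was lower in library 2 with a log2 ratio of -0.38 (exact binomial test, adjusted p = 0.000365). For Bmp6 and Bmp7 the log2 ratios were small, at -0.11 (exact binomial test, adjusted p = 3.70e-06) and -0.15 (adjusted p = 3.84e-10). The remaining 3 genes missed the threshold of the exact binomial test with TMM scaling. The count of 7 genes below it became 8 with DESeq2 size factors (adding Bmp4), 9 with library totals (Bmp4 and Sostdc1) and 10 with spike-in scaling. With TMM, Bmp4 had a ratio of 0.942 (0.892 to 0.996, exact adjusted p = 0.0567), Tgfb2 of 0.983 (0.820 to 1.18, exact adjusted p = 0.901) and Sostdc1 of 0.989 (0.949 to 1.03, exact adjusted p = 0.696).

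**Figure D3:**
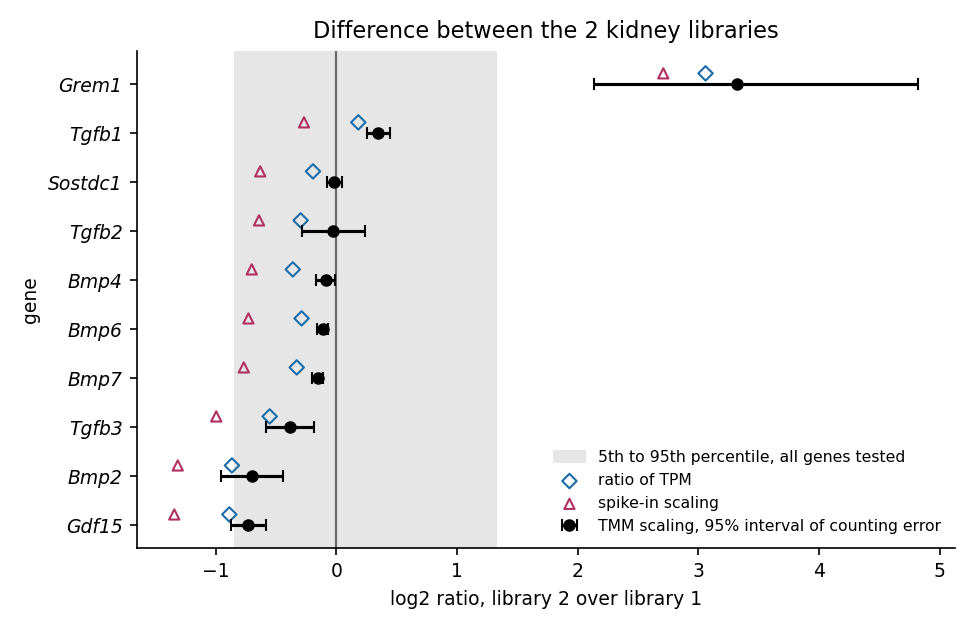
Log2 ratio of library 2 over library 1 for each gene, with the TMM-scaled ratio and its 95% interval (black), the ratio of TPM (diamonds) and the spike-in scaled ratio (triangles), over the 5th to 95th percentile of all genes tested (grey, -0.84 to 1.33). Grem1 alone lies outside the grey range with TMM scaling, at 3.32, and Tgfb1 changes sign from 0.35 to -0.27 with spike-in scaling.

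The gene tables could place reads on these genes with little doubt, since the largest deposited SD of a count among the 10 genes was 0.23. The transcript tables list 1 transcript for Bmp2, Bmp6, Sostdc1, Grem1 and Tgfb3 and several for the other 5 genes. The share of each transcript in the TPM of its gene (IsoPct) is an estimate of the quantification and was not tested. All 7 detected genes had the same leading transcript in both libraries. Only 4 of these have several transcripts, and the others could not differ. Bmp7-201 held 99.3% and 99.8% of Bmp7, and Tgfb1-201 held 98.7% and 97.6% of Tgfb1. The remainder of Bmp7 was a transcript with a retained intron. The remainder of Tgfb1 was a different noncoding or decay-prone transcript in each library, on 14.8 expected counts or fewer.

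Bmp4-201 held 59.0% of Bmp4 in library 1 and 70.5% in library 2, and Bmp4-202 held 24.1% and 17.4%. Both carry the same coding exons, of 1224 bases, so they encode the same protein. Their annotated starts lie 119 bases apart, and Bmp4-202 lacks a noncoding exon of 125 bases (chr14:46387156-46387280). Bmp4-203, which retains an intron, held 16.9% and 12.03%. The deposited SDs of the count of Bmp4-202 were 83.4 on 557 counts and 90.9 on 437 counts.

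Gdf15-202 held 77.6% of Gdf15 in library 1 and 87.9% in library 2, and Gdf15-201 the remaining 22.4% and 12.1%. Gdf15-202 begins with a separate noncoding exon upstream, and the coding exons of both, of 909 bases, are the same. Gdf15-201 had 221 expected counts in library 1 (deposited SD 37.6) and 90.3 in library 2 (26.0), and Gdf15-202 had 671 and 574. The ratio of their TPM was 3.47 in library 1 and 7.24 in library 2. Both transcripts were lower in library 2, Gdf15-202 at 10.6 and 6.52 TPM and Gdf15-201 at 3.07 and 0.9 TPM. The starts lie 361 bases apart, which places the start of Gdf15-201 within the first intron of Gdf15-202. The bases before each start are shown because the transcripts differ there and not in the protein. They are read from GRCm38 on the minus strand, for Gdf15-202 the 250 bases of chr8:70632457-70632706 and for Gdf15-201 the 54 intronic bases of chr8:70632096-70632149, with the only match to a searched motif in capitals.
upstream of Gdf15-202: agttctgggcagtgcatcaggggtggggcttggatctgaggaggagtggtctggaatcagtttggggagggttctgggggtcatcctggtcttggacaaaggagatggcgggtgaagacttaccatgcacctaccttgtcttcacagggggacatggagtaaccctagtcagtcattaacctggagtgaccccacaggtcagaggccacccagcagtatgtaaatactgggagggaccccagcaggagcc
upstream of Gdf15-201: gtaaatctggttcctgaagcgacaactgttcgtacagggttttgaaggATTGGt

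A set of 7 motifs was searched on both strands of these windows. General promoter elements were TATAAA of the TATA box, GGGCGG of the GC box and the letters CCAAT. Elements of regulated promoters were TGACGTCA for the cyclic AMP response, TGANTCA for AP-1, CACGTG for the E box and TGATGNAA for the core of the amino acid response. No match stood in the window before Gdf15-202, and 1 stood before Gdf15-201, CCAAT on the opposite strand at bases -6 to -2 from its start. Of 32851 RefSeq promoters on GRCm38, 33.8% hold CCAAT in the 250 bases before their start and 32.7% hold GGGCGG. The shares for the other motifs were 12.4% for TATAAA, 6.75% for TGANTCA, 6.02% for CACGTG, 3.45% for TGATGNAA and 1.55% for TGACGTCA. No shares were computed for windows of 54 bases, the length searched before Gdf15-201, so these are no measure for its match. The window before Gdf15-202 had a GC content of 56.4% and 1 CpG, beside medians of 52.4% and 6 CpG over those promoters. A match or its absence describes these letters only.

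Among the 5 genes with several transcripts, Tgfb2 was the 1 gene whose estimated leading transcript differed between libraries. Tgfb2-206 led in library 1, with 46.3% against 39.1% for Tgfb2-201, and Tgfb2-201 led in library 2, with 49.2% against 38.4%. These shares rest on 97.3 and 90.9 expected counts for Tgfb2-206 and 123 and 174 for Tgfb2-201, with deposited SDs between 11.0 and 12. The lead of Tgfb2-206 in library 1, at 0.55 against 0.47 TPM, was not tested against that error. Together the 2 transcripts made up most of the gene in each library. Tgfb2-206 carries an additional coding exon of 84 bases, or 28 codons, in frame, on chr1:186690721-186690804 (minus strand). That exon, read whole from GRCm38, is shown because it is the coding difference between the 2 leading transcripts, and no letters are in capitals.
Tgfb2-206 extra coding exon: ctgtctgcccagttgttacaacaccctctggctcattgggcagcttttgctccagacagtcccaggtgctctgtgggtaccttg

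**Figure D4:**
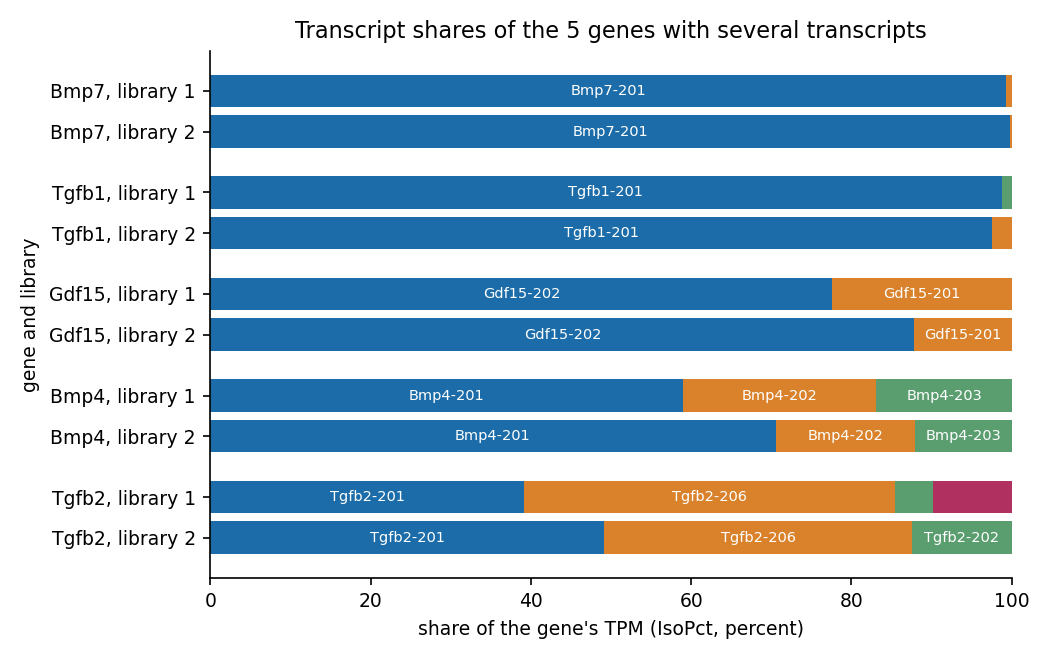
Share of each transcript in the TPM of its gene (IsoPct, percent) in each library for the 5 genes with several transcripts, with colours following the rank of a transcript within its gene and names on shares of 12% or more. Gdf15-202 takes 77.6% and 87.9% and Bmp4-201 59.0% and 70.5%, while Tgfb2-201 and Tgfb2-206 change order.

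Most other ligands of the superfamily were near 0. In the list of related ligands, 5 of 24 reached 1 TPM in both libraries and 3 had no counts. The member ligands held 81.6% and 85.0% of the summed TPM of all 32 ligand genes, and Bmp6, Bmp7 and Bmp4 alone held 65.0% and 67.5%. Gdf10, also called Bmp3b, had 19.7 TPM in library 1 and 12.6 TPM in library 2, between Bmp4 and Tgfb1 in library 1 and between Tgfb1 and Gdf15 in library 2. Inha, the inhibin alpha subunit, had 5.03 and 2.56 TPM, and Lefty1, an inhibitor of Nodal signalling, 2.91 and 1.92 TPM.

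By the same exact test, 2 of these ligands were called higher in library 2 and 2 lower. Mstn, the muscle growth inhibitor myostatin, had 0 counts in library 1 and 25 in library 2, at least 6.76-fold higher against a limit of 3 counts in library 1. The 5 skeletal muscle markers were higher in library 2 too, and their part in it was not tested. Bmp8b had 3 and 19.1 expected counts, a ratio of 5.14 (95% interval 1.51 to 27.1), and Bmp8a was lower in library 2, at 2.25 and 1.00 TPM, a ratio of 0.495 (0.396 to 0.617). Bmp8a and Bmp8b are near-identical neighbours that can share reads, so both are uncertain. Bmp15, the oocyte ligand, had 0.49 and 0.20 TPM, on 75 and 42 counts.

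Other antagonists and modulators were detected more widely, 14 of 18 in both libraries, and none was called in either direction. Dcn, the matrix proteoglycan decorin that can bind TGF beta, had 78.8 and 63.8 TPM. Twsg1, which helps chordin hold BMPs, had 41.9 and 33.2 TPM, and Nbl1, an antagonist of the same DAN family as Grem1, had 33.1 and 23.6 TPM. Sostdc1 stood above Twsg1 and Nbl1 and below Dcn in each library. The latency and activation list, which covers proteins that store or release TGF beta, was detected in full, 11 of 11. It was led by Furin, the protease that cuts the TGF beta and BMP precursors (132 and 96.2 TPM), Ltbp4, a latent TGF beta binding protein (65.0 and 50.5 TPM), and Itgav, the integrin alpha V chain (58.2 and 50.3 TPM). Each of the 3 exceeded Tgfb1 in both libraries. Ltbp2, a matrix protein of the same family as Ltbp4, was called higher in library 2, with a count ratio of 2.84 (2.43 to 3.34) on 201 and 704 counts, although its TPM was 1.15 and 1.48.

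**Figure D5:**
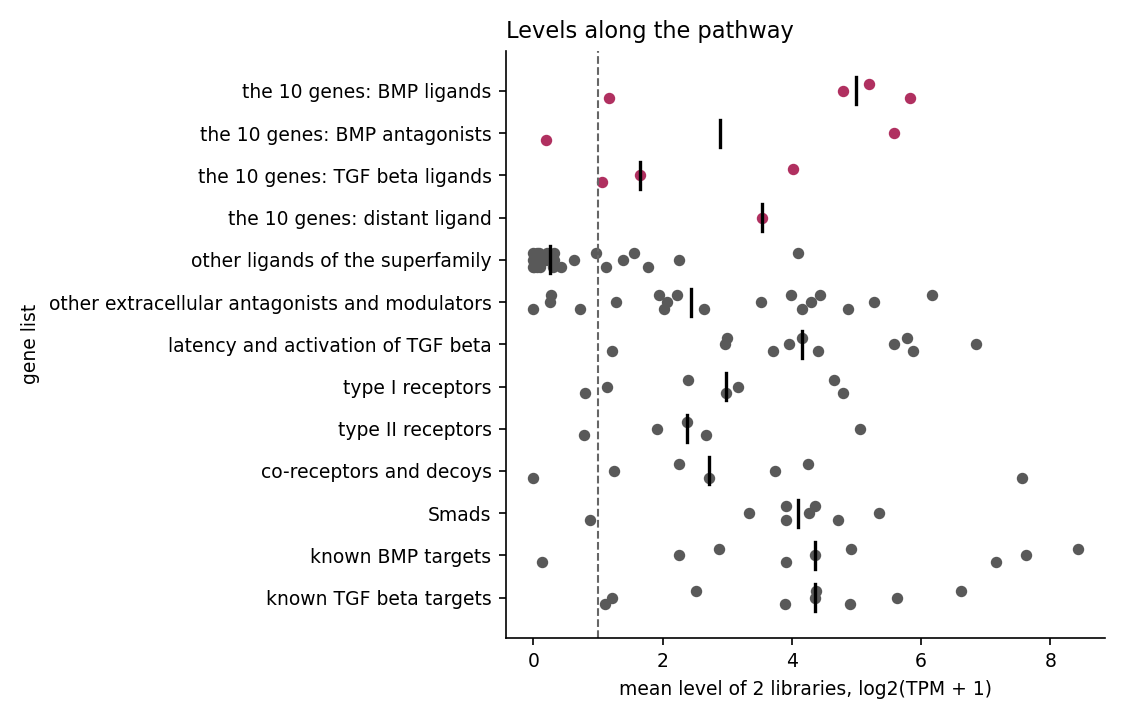
Mean level over both libraries, log2(TPM + 1), of every gene in each list (points), with list medians (black bars), a dashed line at 1 TPM, and the 10 genes in red. The other ligands gather near 0, with 5 of 24 detected, while the latency and activation list lies right of the line in full, 11 of 11.

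Receptors of the family were detected in both classes, type I and type II. Of the type I receptors 6 of 7 were detected, led by Acvr1b, an activin receptor (28.5 and 24.6 TPM), Acvrl1, an endothelial receptor for Bmp9 and Bmp10 known as ALK1 (25.7 and 22.5 TPM), and Bmpr1a, a receptor of Bmp2 and Bmp4 (8.45 and 7.5 TPM). Of the type II receptors 4 of 5 were detected. They were led by Tgfbr2, which binds TGF beta (33.9 and 30.3 TPM), Bmpr2, the BMP type II receptor (5.40 and 5.39 TPM), and the activin receptor Acvr2b (4.92 and 3.52 TPM). Tgfbr2 exceeded Bmpr2 in both libraries. None of the 12 receptors was called different.

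Of the co-receptors and decoys 5 of 7 were detected. Eng, the endothelial co-receptor endoglin, was highest at 223 and 151 TPM, followed by Tgfbr3, or betaglycan, which presents Tgfb2 (17.9 and 18.1 TPM), and Rgmb, a BMP co-receptor (14.6 and 10.3 TPM). Hjv, hemojuvelin, a co-receptor of Bmp6 in liver that skeletal muscle also expresses, was called 16.9-fold higher in library 2 (10.4 to 29.3), at 0.17 and 2.60 TPM. The skeletal muscle markers moved with Hjv, and their part was not tested. Of the Smads 7 of 8 were detected and none was called. Smad4, the shared partner, had 49.5 and 30.1 TPM, Smad3, of the TGF beta branch, 28.5 and 22.1 TPM, and the inhibitory Smad7 20.8 and 18.2 TPM.

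Known target genes of both branches were detected, 8 of 9 in each list. The BMP targets Id2 (397 and 287 TPM), Id3 (223 and 171 TPM) and Id1 (181 and 103 TPM), which encode inhibitors of helix-loop-helix factors, were highest, and none of the BMP targets was called. Among TGF beta targets, Ctgf, a matricellular growth factor now named Ccn2, had 118 and 75.8 TPM, the collagen gene Col1a2 51.4 and 45.1 TPM, and the feedback inhibitor Pmepa1 34.3 and 23.5 TPM. Ltbp2, called higher in library 2, is also in this list. All these genes are regulated by other signals too, and their levels were not tested for dependence on the ligands.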

How the data were processed

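Per the labels, both kidney libraries were made from polyadenylated RNA of over 200 nt and read in pairs of 76 nt with strand kept. The authors deposited expected counts per gene and transcript, estimates that need not be whole, and TPM. Deposited posterior means, count SDs and TPM interval bounds (level not stated) are signal values of the quantification, and the deposited share of each transcript in its gene is in percent, per the file headers. The build is mm10 and the annotation M4, as stated in the text files deposited with the tables. The name of the aligner or quantifier is not given in the sources used here. Junction and contig tables on an older build were not used here.

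Symbols, positions and exons came from GENCODE M21 on GRCm38, the assembly of mm10, and matched 42462 of 43346 genes (98.0%). Ctgf and Hjv were found under their newer or older names through RefSeq synonyms, and Gdf1 was not analysed here. Of 21 transcripts of the 10 genes, 18 had the same length in M21. Promoters came from a RefSeq table that holds 6 of the 10 genes. Rows of 97 spike-ins and 26248 numeric identifiers, all at 0, were left out of library totals.

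Expected counts were rounded and compared with the exact binomial test in Python 3 with SciPy, for genes with 10 or more counts in sum. For log2 ratios, a prior count of 0.5 was added in both libraries only where a gene had no counts in at least 1 of them. With 1 group, edgeR's own test had no residual degrees of freedom. TMM factors were 1.03 and 0.974 (edgeR 4.0.16, R 4.3.3), and DESeq2 1.42.0 gave size factors as an alternative. The test was tested on simulated data. Those counts varied by counting error alone around set folds, so they do not cover variation between animals. Zero counts were read as a limit of 3 counts per library, and a gene was detected at 1 TPM in both libraries. Limits and 95% intervals cover counting error only, as they rest on read counts alone. The labels name no molecular identifiers, so reads copied from the same molecule cannot be told apart.

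The members and gene lists were chosen with earlier results of these data known. All 10 genes are named, as are the 3 highest of each pathway list by mean TPM and any called between libraries, except 1 that is not reported here. Overlapping genes, the genes that check the labels and Gfral, the receptor of Gdf15, are named outside that rule.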

Additional observations from a re-analysis of the deposited data

How the results depend on the processing

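Of 122 recomputed values, 113 kept their direction and call, or, where they have none, moved by no more than the SD between libraries or 1.5 times for a count. For mean levels and transcript shares, leaving out 1 of the 2 libraries cannot move the value beyond that SD. The 113 thus include values whose outcome was fixed in advance. Scaling to the summed spike-in counts raised the genes called from 1537 to 2870 (539 higher and 2331 lower in library 2, against 1052 and 485) and the members called from 1 to 3, adding Bmp2 (log2 ratio -1.31) and Gdf15 (-1.34). It reversed Tgfb1 to -0.27. With library totals, 61.5% of calls were higher in library 2, against 68.4% with TMM. Without library 1 or library 2 in turn, 7 and 9 genes of the 10 reached 1 TPM, and thresholds of 0.5 and 5 TPM gave 9 and 6. By posterior mean TPM, 8 genes reached 1 TPM in both libraries. Posterior means moved Tgfb2 from 1.08 to 1.36 TPM, which put it above Bmp2 at 1.25 TPM. They also moved Tgfb2-201 from 44.1% to 35.2% and Tgfb2-206 from 42.3% to 33.6%. The median log2(TPM + 1) of the members was 3.78, and 4.79 over the 7 detected ones. No paired analysis was possible because there is 1 group. With 2 libraries of 1 donor label, variation between animals cannot be estimated, and Grem1 rests on 6 counts in library 1.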
